A study of Caenorhabditis elegans with 4 samples.

Results

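The secondary Argonautes specific to nematodes (the WAGO clade) are described here through 7 genes, wago-1, wago-2, wago-4, wago-5, wago-10, hrde-1 and nrde-3, chosen by gene symbol from the 20182 genes of a count table. All 7 were counted in every library and all 7 passed the filter on low counts, so each was among the 13944 genes tested. RNA came from whole young adult Caenorhabditis elegans grown on OP50 bacteria, and it was taken from lysates that were also used for ribosome profiling. The tested strain, named c14 in the labels, is mutant for a pair of Y-box genes, with allele rrr12 of cey-1 and allele ok858 of cey-4. Y-box proteins bind mRNA through a cold shock domain. The other strain was N2, the standard wild type. There were 2 libraries per strain, with 33009708 and 24717311 counts for c14 replicates 1 and 2 and 29773406 and 31311497 counts for N2 replicates 1 and 2. Whether the 2 libraries of a strain stem from separate cultures is not stated, and the p-values below reflect only how these libraries spread, which may be technical.

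Argonaute proteins bind small RNAs and use them to find matching transcripts. In the worm, a first small RNA bound by a primary Argonaute marks a target, RNA-dependent RNA polymerases copy the target into many secondary siRNAs, and WAGO-clade Argonautes bind these copies and silence the target in the cytoplasm or in the nucleus. The pathway is known for silencing transposons and foreign genes in the germ line and for carrying that silencing from parent to offspring.

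By role, WAGO-1 is a germline Argonaute of perinuclear granules and WAGO-4 is a germline Argonaute known for transmitting silencing to the next generation. HRDE-1 acts in germline nuclei and maintains inherited silencing, while NRDE-3 carries siRNAs into nuclei of somatic cells. WAGO-10 has been described in the sperm-producing germ line. In assembly WBcel235, wago-1 (WBGene00011061) lies on the plus strand of chromosome I from 7235384 to 7238792, and wago-4 (WBGene00010263) on the plus strand of chromosome II from 12919551 to 12923377. The gene hrde-1 (WBGene00007624) spans 4172337 to 4176159 on the minus strand of chromosome III, and nrde-3 (WBGene00019862) spans 372235 to 376900 on the plus strand of chromosome X. Of the other members, wago-10 (WBGene00020707) is found on the plus strand of chromosome V from 343428 to 347640 and wago-5 (WBGene00022877) on the minus strand of chromosome II from 5812375 to 5815482.

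Both annotations used here class wago-2 (WBGene00018862, plus strand of chromosome I, 5368478 to 5372643) as a pseudogene. Its counts are therefore reads at an annotated pseudogene, and no protein is listed for it. The 6 protein-coding members each have 1 annotated transcript, with 7 to 11 exons, and encode proteins of 912 (wago-5) to 1057 (nrde-3) residues by their coding length. Summed exon lengths of the 7 genes ran from 2739 bases in wago-5 to 3802 bases in wago-2. No other annotated gene overlaps any of them, so no annotated antisense gene shares their counts. Whether related Argonaute genes share stretches of sequence was not checked.

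The strain labels were checked on the mutated genes. Transcripts of cey-4 stood at 10.1 and 11.3 CPM in c14 against 787 and 762 CPM in N2, and those of cey-1 at 21.6 and 24.5 CPM in c14 against 144 and 130 CPM in N2. CPM are counts relative to the library total after TMM scaling, a correction for differences in library composition. Both genes were lower in c14, with log2 fold changes of -6.18 ± 0.12 and -2.57 ± 0.11 (edgeR adjusted p = 5.494e-10 and 1.326e-06). Germline, oocyte, sperm, intestine, muscle, neuron and hypodermis markers all had counts in every library.

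Levels can be compared between genes only per unit of length, so counts were also divided by summed exon length and scaled so that each library sums to 1000000 (TPM). On that scale wago-1 stood at 338 and 333 in c14 and 373 and 374 in N2, and hrde-1 at 304 and 346 in c14 and 329 and 292 in N2. These 2 were the most abundant members, and their ranges overlapped, with wago-1 above hrde-1 in 3 of 4 libraries. The next level was that of wago-4, with 56.3 and 56.0 in c14 and 67.0 and 66.9 in N2. The pseudogene wago-2 followed with 46.0 and 49.0 in c14 and 41.7 and 40.8 in N2.

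Then came nrde-3 with a length-scaled level of 15.2 and 16.99 in c14 and 19.8 and 17.5 in N2, and wago-10 with 7.999 and 8.21 in c14 and 3.70 and 2.39 in N2. The lowest was wago-5, at 1.77 and 2.01 in c14 and 1.34 and 1.33 in N2. Means over the 4 libraries spanned 220-fold from wago-1 to wago-5. Apart from wago-1 and hrde-1, each gene lay above the next in all 4 libraries with no overlap of ranges, and the step from hrde-1 to wago-4 was 5.17-fold.

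**Figure D1:**
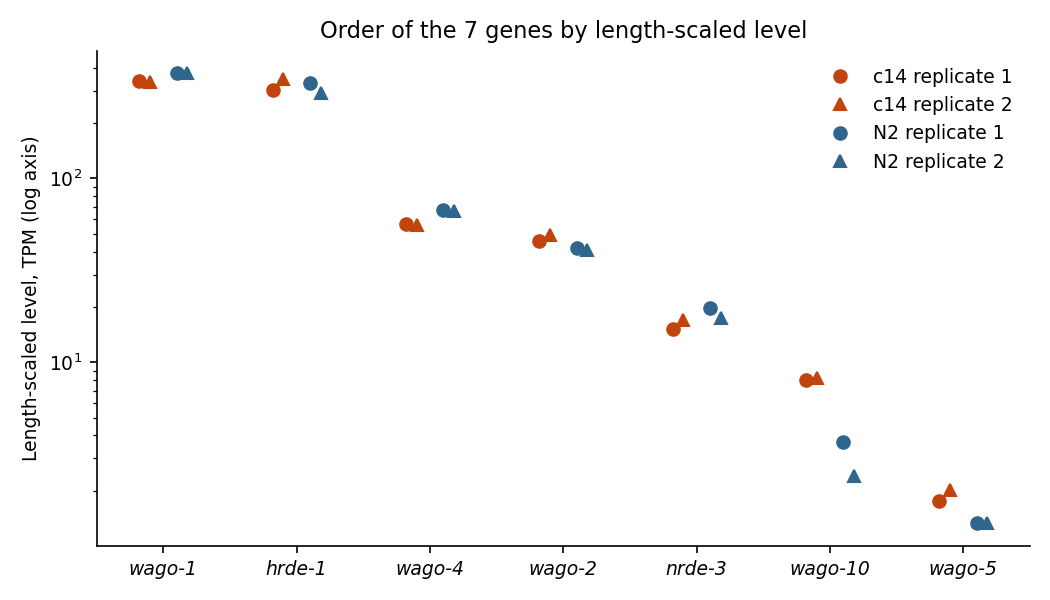
Length-scaled level (counts per kilobase of summed exon length, scaled to the same sum in every library, log axis) of the 7 genes, ordered by their mean, with 1 point per library (circles for replicate 1, triangles for replicate 2, red for c14, blue for N2). The 2 most abundant genes span 292 to 374 together and overlap between 333 and 346, and the other 5 form separate steps down to wago-5.

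Together the 7 genes took 0.163% (0.162 to 0.164) and 0.167% (0.166 to 0.169) of all counts in the c14 libraries, against 0.182% (0.181 to 0.184) and 0.184% (0.183 to 0.186) in the N2 libraries. The bounds are 95% Wilson binomial intervals and cover counting error only. The pair wago-1 and hrde-1 made up 82.5% (82.2 to 82.8) and 82.8% (82.4 to 83.2) of these counts in c14 and 83.1% (82.8 to 83.4) and 82.8% (82.5 to 83.1) in N2. The share of counts of the 7 genes was thus lower in both c14 libraries than in both N2 libraries, while the part taken by the leading pair was nearly the same. As a sum of length-scaled levels the groups overlapped, at 769 and 811 in c14 against 836 and 795 in N2.

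The comparison of the strains asked which of the 7 transcripts differed in abundance between c14 and N2. The 7 genes did not share a direction. On TMM-scaled counts, wago-10 was 2.44-fold higher in c14, and wago-1, wago-4 and nrde-3 were lower by 18.3 to 23.7%. The genes wago-2, wago-5 and hrde-1 were not called. The size of the falls depended on the scale. Length-scaled means were 335 in c14 against 373 in N2 for wago-1, 56.2 against 67 for wago-4, and 16.1 against 18.7 for nrde-3. With each library's trend on exon length removed, the log2 fold changes of wago-1, wago-4 and nrde-3 were -0.393, -0.512 and -0.476. Of the 7 genes, 4 were called (quasi-likelihood test of edgeR, adjusted p below 0.05 by Benjamini-Hochberg over all genes tested), 1 higher and 3 lower, where 26.4% of all genes tested were called, 13.1% higher and 13.3% lower. The groups did not overlap for 6 of the 7 genes, against 64% of all genes. Both c14 libraries were above both N2 libraries for 3 members, against 30.6% of all genes, and below them for 3, against 33.5%. The median log2 fold change was -0.07 over the 7 genes and -0.01 over all genes tested. The members and lists were chosen with earlier results of these data known, so these counts describe the family and are no test of it.

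**Figure D2:**
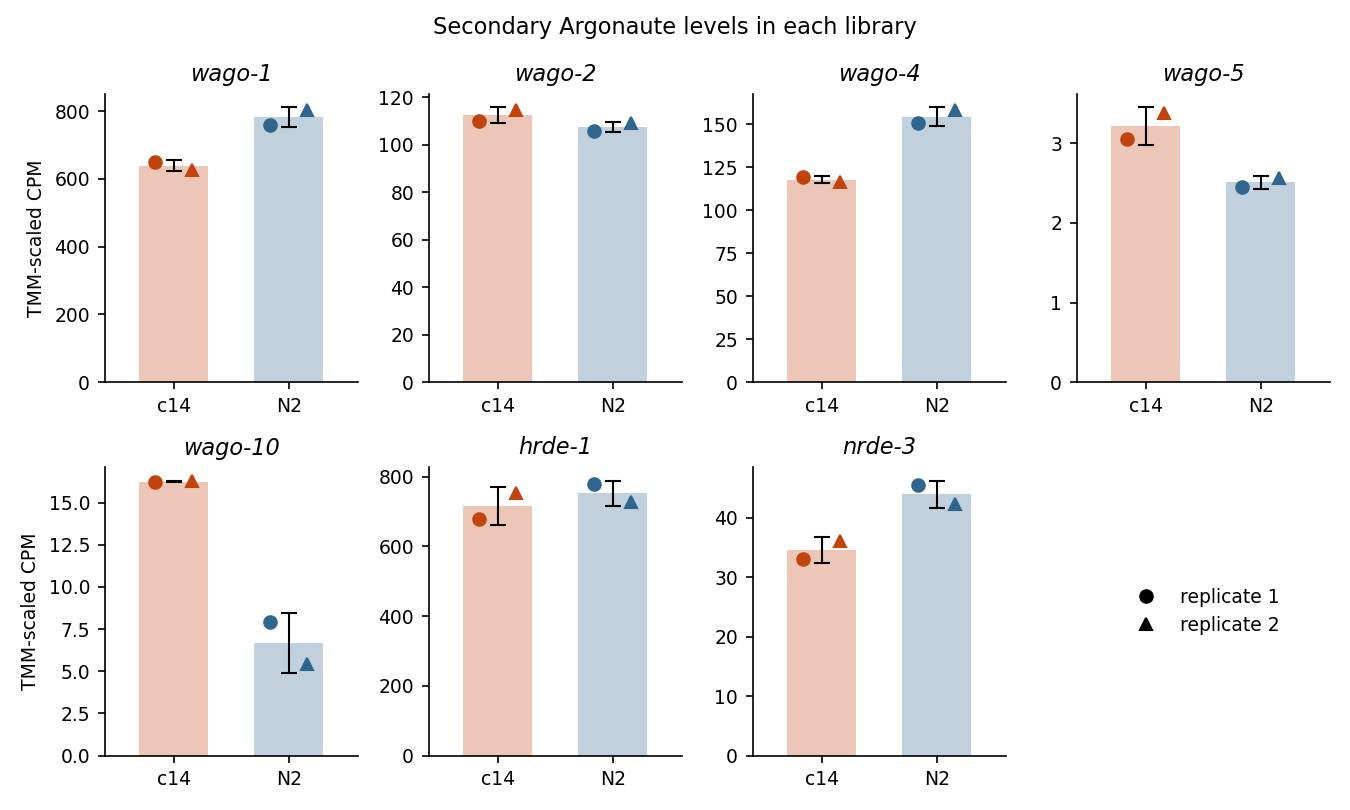
TMM-scaled CPM of each of the 7 genes (linear axes from 0, a separate scale per gene), with bars for the mean of 2 libraries, error bars for the SD, circles for replicate 1 and triangles for replicate 2. The c14 libraries (left in each panel) lie above N2 for wago-10, wago-5 and wago-2 and below it for wago-1, wago-4 and nrde-3, and the groups overlap for hrde-1.

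The largest change among the members was the rise of wago-10. Its counts were 542 and 404 in c14 against 233 and 169 in N2, or 16.2 and 16.3 CPM in c14 against 7.94 and 5.42 CPM in N2. The 2 c14 libraries were nearly equal, the N2 libraries differed by 0.55 on the log2 scale, and the groups did not overlap. The mean was 16.2 ± 0.0504 CPM in c14 and 6.68 ± 1.79 CPM in N2 (SD, n = 2 each), which is 1.28 ± 0.17 as a log2 fold change (adjusted p = 0.0006298, edgeR). Its 95% interval ran from 1.88-fold to 3.15-fold, and 268 of the 13944 genes tested had a larger rise. The call was made under all 12 alternative settings, with log2 fold changes of 1.05 to 1.58.

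Markers of sperm moved in the same direction. Of 23 sperm markers listed, 22 had a row under their symbol and were tested. Of these, 18 were higher in c14 and 0 were lower, where 13.1% of all genes tested were higher and 13.3% lower. Their median log2 fold change was 0.74 (DESeq2 called 15, limma 18, and 18 passed at an unadjusted p under 0.05). Their summed level was 625 and 613 CPM in c14 against 411 and 445 CPM in N2, and no marker was at 0 in any library. Among them, fer-1, a membrane fusion gene of maturing sperm, stood at 63.6 and 67.7 CPM in c14 against 31.3 and 24.7 CPM in N2 (log2 fold change 1.23 ± 0.12, edgeR adjusted p = 0.0002081). The sperm surface gene spe-9 was higher by 0.97 ± 0.16 on the log2 scale (adjusted p = 0.002287, edgeR). Both were named after their values were seen. Without c14 replicate 1, 10 sperm markers were called higher.

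In whole animals, fewer or more cells of a type cannot be told apart from less or more RNA per cell. Set against the summed sperm markers within a library, wago-10 had 25.9 (23.8 to 28.2) and 26.6 (24.1 to 29.3) counts per 1000 summed sperm marker counts in c14, against 19.3 (16.99 to 22.02) and 12.2 (10.5 to 14.2) in N2. The ratio was higher in both c14 libraries than in both N2 libraries, and the N2 libraries also differed from each other beyond these counting intervals. This ratio depends on which markers are summed. The most abundant, spe-11, made up 24.5 and 22.4% of the sum in c14 and 28.4 and 26.6% in N2. Its log2 fold change was 0.305 ± 0.094. With each of the 22 markers left out of the sum in turn, which was chosen after seeing the data, the c14 libraries stayed above the N2 libraries. Such a sum keeps all other markers, so it cannot show how wago-10 compares with any single marker. Of the 22 markers, 19 had a smaller log2 fold change than wago-10. What part the sperm markers have in the rise of wago-10 was not tested.

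**Figure D3:**
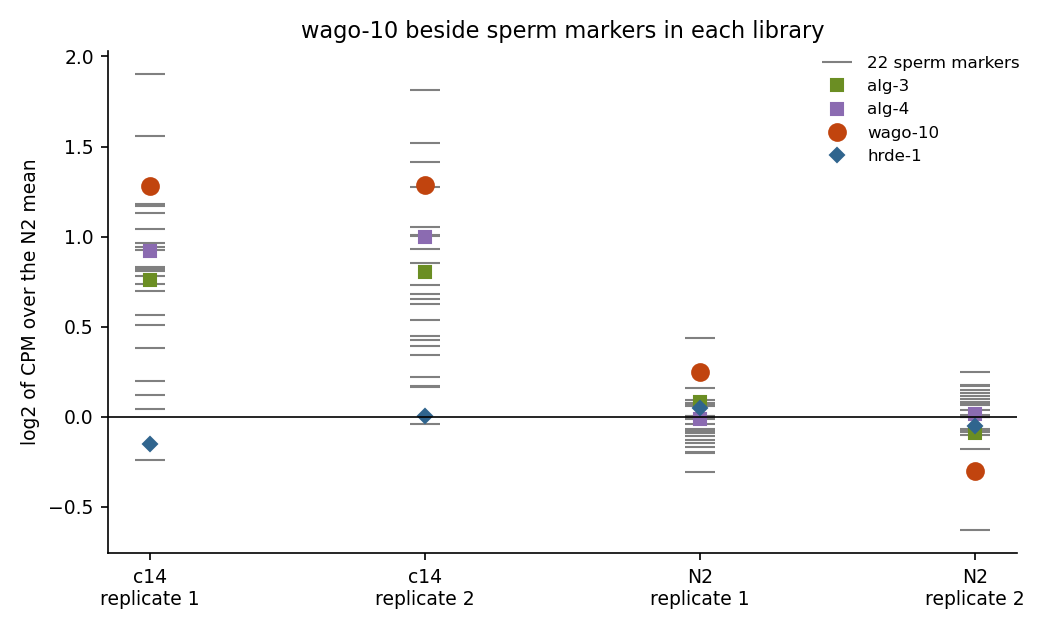
Log2 of the CPM in each library over the N2 mean, for 22 sperm markers (grey dashes), wago-10 (red circles), the sperm-line Argonaute genes alg-3 and alg-4 (squares) and hrde-1 (blue diamonds). In c14, wago-10 lies in the upper part of the marker range and hrde-1 near its lower end, and in N2 wago-10 is higher in replicate 1 than in replicate 2.

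The germline Argonaute genes wago-4 and wago-1 were lower in c14. The level of wago-4 was 120 and 116 CPM in c14 against 151 and 158 CPM in N2. Replicates lay close together and the groups did not overlap. Its mean was 118 ± 2.32 CPM in c14 and 155 ± 5.42 CPM in N2 (SD, n = 2 each), a log2 fold change of -0.39 ± 0.09 and a fall of 23.7% with a 95% interval of 12.6 to 33.4% (edgeR adjusted p = 0.009218). This call was not made without c14 replicate 1 (log2 fold change -0.40, adjusted p = 0.08227) or without c14 replicate 2 (-0.34, adjusted p = 0.1445).

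For wago-1 the libraries had 650 and 627 CPM in c14 against 761 and 803 CPM in N2, again without overlap. The mean of 638 ± 15.9 CPM in c14 and 782 ± 29.8 CPM in N2 (SD, n = 2 each) gave -0.29 ± 0.09 as the log2 fold change (adjusted p = 0.03658, edgeR), a fall of 18.3% with a 95% interval of 6.13 to 28.9%. The gene lay close to the threshold, and 7 of the 12 alternative settings did not call it. Without c14 replicate 1, c14 replicate 2 or N2 replicate 2 its log2 fold change was -0.30, -0.24 and -0.24 (adjusted p = 0.1966, 0.3568 and 0.06958). It was also not called with library size alone (-0.27, adjusted p = 0.05594), when genes needed a mean count of 50 or more (-0.26, 0.05878) or with limma on the deposited log2 values (-0.27, 0.05556).

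The third lower member was the somatic nuclear Argonaute gene nrde-3. It stood at 32.96 and 36.03 CPM in c14 against 45.5 and 42.3 CPM in N2, and the groups did not overlap. With means of 34.5 ± 2.17 CPM in c14 and 43.9 ± 2.25 CPM in N2 (SD, n = 2 each), the log2 fold change was -0.35 ± 0.10 (edgeR adjusted p = 0.02955), 0.785-fold with a 95% interval of 0.67 to 0.919. It was not called without c14 replicate 1 (-0.27, adjusted p = 0.2279), c14 replicate 2 (-0.38, 0.1235) or N2 replicate 1 (-0.30, 0.063), nor with the DESeq2 test (-0.34, 0.05689).

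The germline nuclear Argonaute gene hrde-1 had 678 and 754 CPM in c14 against 778 and 727 CPM in N2. These groups overlapped, and the means of 716 ± 53.7 CPM in c14 and 752 ± 35.7 CPM in N2 (SD, n = 2 each) differed by less than the larger spread. The log2 fold change was -0.07 ± 0.10 (edgeR adjusted p = 0.6317), with a 95% interval from 18.0% lower to 10.4% higher. Without c14 replicate 1 the log2 fold change was 0.02. Its direction also depended on the scale, as the length-scaled mean of hrde-1 was 325 in c14 and 311 in N2. With each library's trend on exon length removed, the log2 fold change was -0.20 (edgeR adjusted p = 0.0936).

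Counts of hrde-1 and of the lower members can be set against each other within a library, where scaling between libraries has no part. For each count of hrde-1, wago-1 had 0.958 and 0.832 in c14 against 0.978 and 1.10 in N2, and wago-4 had 0.176 and 0.154 in c14 against 0.194 and 0.218 in N2. The ratio for nrde-3 was 0.0486 and 0.0478 in c14 against 0.0585 and 0.0582 in N2. All 3 ratios were lower in both c14 libraries than in both N2 libraries, but these genes had already been called lower on the same counts. The ratio for wago-10 went the other way, at 0.0239 and 0.0216 in c14 against 0.0102 and 0.00745 in N2.

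Of the weakly counted members, wago-5 had 102 and 84 counts in c14 against 72 and 80 in N2, or 3.05 and 3.39 CPM in c14 against 2.46 and 2.56 CPM in N2. The groups did not overlap, but the log2 fold change of 0.35 ± 0.19 did not pass (edgeR adjusted p = 0.1933), and the 95% interval ran from 0.960-fold to 1.70-fold. For the pseudogene wago-2, levels were 110 and 115 CPM in c14 against 106 and 109 CPM in N2, and the log2 fold change was 0.07 ± 0.09 (adjusted p = 0.6354, edgeR). Its interval ran from 8.74% lower to 19.95% higher. With each library's trend on exon length removed, the wago-2 value was -0.08 and the log2 fold changes of all 7 genes were lower by 0.077 to 0.147 than as counted. The median of the 7 genes was then -0.204, and that of all genes tested 0.002.

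**Figure D4:**
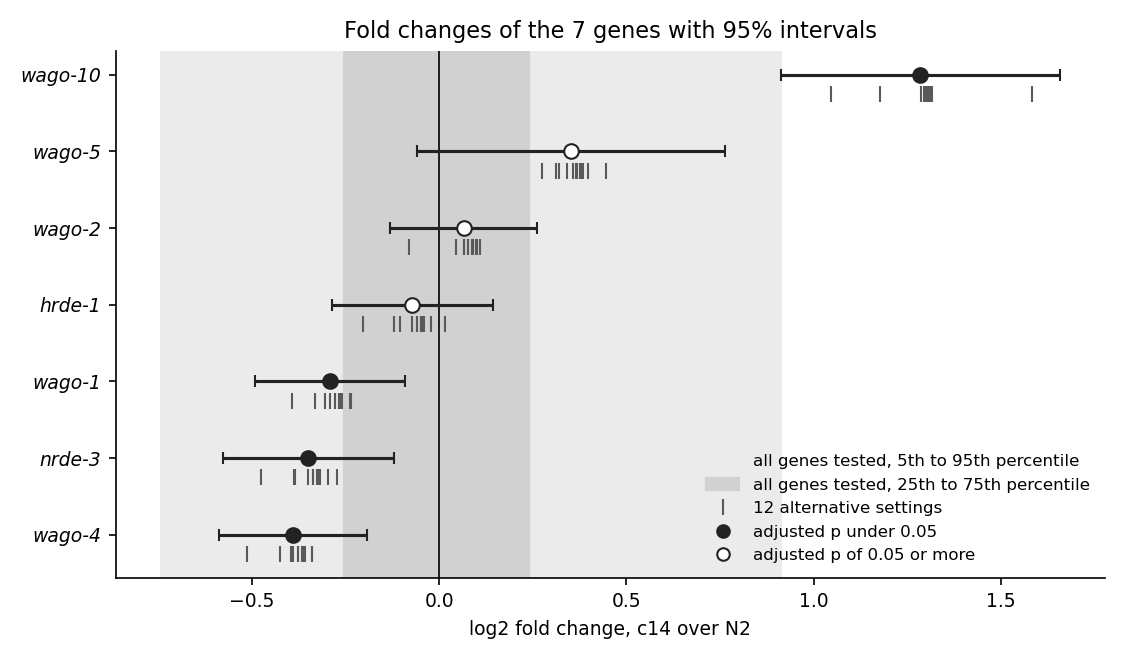
Log2 fold change (c14 over N2) of the 7 genes with 95% intervals (points, filled where the adjusted p was below 0.05), the values under 12 alternative settings (ticks below each point), and the spread of all genes tested (light band for the 5th to 95th percentile, dark band for the 25th to 75th). The interval of wago-10 begins at the upper edge of the light band, and those of wago-1, nrde-3 and wago-4 lie below 0.

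General germline and oocyte markers were given for the same libraries. Beside the list counts here and below stand the shares over all genes tested, 13.1% higher and 13.3% lower. Of 14 germline markers, 1 was higher and 2 were lower in c14, with a median log2 fold change of -0.13 and a summed level of 3895 and 3971 CPM in c14 against 4899 and 4463 CPM in N2. The lower ones were cgh-1, a germline RNA helicase gene (log2 fold change -0.63 ± 0.09), and car-1, which encodes a partner protein in RNA granules (-0.32 ± 0.09). The higher one was gld-2, a poly(A) polymerase gene (0.36 ± 0.09). The calls of car-1 and gld-2 were not made without c14 replicate 1 (-0.37 and 0.45) or c14 replicate 2 (-0.24 and 0.32). That of car-1 was also lost when genes needed a mean count of 50 or more (-0.29), and that of gld-2 with the length trend removed (0.13). Without N2 replicate 2, and also with the length trend removed, 4 germline markers were lower. These 3 genes were named after their values were seen.

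Of 16 oocyte markers, 4 were lower and 0 higher (edgeR, 8 with an unadjusted p under 0.05, 4 called by DESeq2 and 3 by limma), with a median of -0.22 and a summed level of 8162 and 8641 CPM in c14 against 10370 and 9405 CPM in N2. The count of lower oocyte markers was 2 without either c14 library, 9 without N2 replicate 2 and 7 with the length trend removed.

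Relative to 1000 counts of the summed germline markers, wago-1 had 167 and 158 counts in c14 against 155 and 180 in N2, which overlap. The same ratio was 30.7 and 29.3 in c14 against 30.8 and 35.5 in N2 for wago-4, and 174 and 190 in c14 against 159 and 163 in N2 for hrde-1. These ratios depend on which markers are summed. The most abundant marker, cgh-1, which was itself lower in c14, made up 20.7 and 21.1% of the sum in c14 and 26.9 and 27.5% in N2. Without it, an alternative chosen after seeing the data, wago-1 had 210 and 200 counts in c14 against 212 and 248 in N2, with no overlap. On the same sum wago-4 had 38.7 and 37.1 in c14 against 42.1 and 48.96 in N2, and hrde-1 had 219 and 241 in c14 against 217 and 225 in N2, which overlap. With each of the 14 markers left out in turn, wago-4 was lower in both c14 libraries for 8 markers left out and overlapped for the other 6. The groups overlapped for wago-1 with 13 of the markers left out, and cgh-1 was the 1 marker without which they did not. For hrde-1 both c14 libraries were higher with 13 of the markers left out, and the groups overlapped only without cgh-1. What part these markers have in the values of the Argonaute genes was not tested.

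Somatic markers moved in both directions. Of 8 intestine markers 3 were higher and 1 lower (median log2 fold change 0.31), of 7 muscle markers 4 were higher and 0 lower (median 0.38, edgeR, 5 with an unadjusted p under 0.05, 4 called by DESeq2 and 4 by limma). Of 10 neuron markers 1 was higher and 3 lower (median 0.10), and of 8 hypodermis markers 1 was higher and 1 lower (median 0.27). Without either c14 library 0 intestine markers were called higher, and 2 and 1 muscle markers were higher without c14 replicate 1 and c14 replicate 2. Neuron calls fell to 2 in each of these fits, and hypodermis calls to 1 and 0.

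Summed levels were 37350 and 39320 CPM in c14 against 34220 and 24790 CPM in N2 for intestine, and 12940 and 13430 CPM in c14 against 8581 and 8972 CPM in N2 for muscle. They were 217 and 237 CPM in c14 against 258 and 258 CPM in N2 for neurons, and 2192 and 2023 CPM in c14 against 2393 and 2888 CPM in N2 for hypodermis. Single genes carried much of these sums: the yolk gene vit-6, which was not called (edgeR adjusted p = 0.1078), was 88.4 to 91.4% of the intestine sum, and the collagen gene col-19, which was lower, was 93.3 to 96.1% of the hypodermis sum. Without the most abundant marker of each list, the sums were 3213 and 3614 CPM in c14 against 2942 and 2870 CPM in N2 for intestine, and 6993 and 7318 CPM in c14 against 4763 and 4901 CPM in N2 for muscle. For hypodermis they were 116 and 135 CPM in c14 against 93.3 and 111 CPM in N2, the opposite direction to the full sum. For neurons, without the neuropeptide-processing gene egl-3, they were 177 and 192 CPM in c14 against 171 and 189 CPM in N2, which overlap. These genes were singled out after their values were seen. For nrde-3, the member of somatic nuclei, the part of these markers was likewise not tested.

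The other 5 genes of the WAGO clade, ppw-1, ppw-2, sago-1, sago-2 and wago-11, gave 0 calls in either direction with edgeR (0 with an unadjusted p under 0.05, and 0 with DESeq2 or limma). Their log2 fold changes ran from -0.15 to 0.16. The most abundant, ppw-2, a germline Argonaute gene also called wago-3, stood at 280 and 299 CPM in c14 against 303 and 312 CPM in N2 (log2 fold change -0.09 ± 0.09, edgeR adjusted p = 0.514).

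Among 11 other Argonaute genes, 3 were higher and 2 lower in c14, with a median of -0.02. The sperm-line Argonaute genes alg-4 and alg-3 were higher, with 82.3 and 87.0 CPM in c14 against 43.1 and 43.96 CPM in N2 for alg-4 (log2 fold change 0.96 ± 0.09, and 0.78 ± 0.10 for alg-3). The microRNA Argonaute gene alg-1 was also higher (0.43 ± 0.10), a call lost without c14 replicate 2 (0.37) and with the length trend removed (0.18). The lower ones, named after their values were seen, were the piRNA Argonaute gene prg-1 (-0.39 ± 0.09) and the germline gene csr-1 (-0.32 ± 0.09). Neither was called without c14 replicate 1 (-0.37 and -0.29) or without c14 replicate 2 (-0.38 and -0.31).

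The list of siRNA amplification genes holds the RNA-dependent RNA polymerases and the mutator proteins that supply WAGO-clade Argonautes with small RNAs. None of its 19 tested genes was called with edgeR, against 26.4% of all genes tested. Of its genes 3 had an unadjusted p under 0.05, DESeq2 called 0 and limma 1, and the median log2 fold change was 0.10. Its most abundant member, the germline polymerase gene ego-1, had 333 and 336 CPM in c14 against 302 and 315 CPM in N2 (0.12 ± 0.09, edgeR adjusted p = 0.3618). With the length trend removed it was -0.092. Of 20 genes listed, cde-1 had no row under that symbol and was not analysed here.

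Of 8 genes of primary siRNA production, 2 were higher and 0 lower, with a median of 0.22 (DESeq2 called 1 and limma 3). Among 6 at an unadjusted p under 0.05 (edgeR), eri-5 was negative (-0.29) and the others were positive. The higher ones were the polymerase gene rrf-3 (0.34 ± 0.09) and the Dicer-related helicase gene drh-1 (0.28 ± 0.09). Neither call was made without c14 replicate 1 (0.39 and 0.30), without c14 replicate 2 (0.33 and 0.30) or with the length trend removed (0.12 and 0.16), and drh-1 was also not called without N2 replicate 1 (0.27) or with the DESeq2 test (0.29).

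Of 14 nuclear RNAi genes, the partners of HRDE-1 and NRDE-3 among them, 1 was higher and 1 lower, with a median of 0.10. The nuclear RNAi factor gene nrde-2 was higher, at 291 and 303 CPM in c14 against 227 and 245 CPM in N2 (0.33 ± 0.09, edgeR adjusted p = 0.02132). It was not called without c14 replicate 1 (0.37), without c14 replicate 2 (0.33) or with the length trend removed (0.17). The lower gene was enri-2, a weakly counted gene at 0.329 and 0.202 CPM in c14 against 1.16 and 1.15 CPM in N2 (-2.06 ± 0.36, edgeR adjusted p = 0.002697).

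Of 9 germ granule genes, 1 was lower and 0 higher with edgeR, DESeq2 called 0, and limma called 1 higher and 1 lower. Of 5 with an unadjusted p under 0.05 (edgeR), znfx-1 (0.27) and pid-5 (0.20) were positive. The others, pid-4, pgl-1 (-0.28) and pgl-3 (-0.22), were negative. With the length trend removed 0 were higher and 3 lower. The gene called by edgeR was pid-4 (-0.32 ± 0.09). It was not called without c14 replicate 1 (-0.33), c14 replicate 2 (-0.28) or N2 replicate 2 (-0.26), nor with the DESeq2 test (-0.31). Of 7 genes of dsRNA transport, 1 was lower and 0 higher, with 1 at an unadjusted p under 0.05 and 1 called by DESeq2 and by limma. It was sid-2, an intestinal dsRNA uptake gene (-0.51 ± 0.14), not called without c14 replicate 2 (-0.38) or N2 replicate 2 (-0.40).

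**Figure D5:**
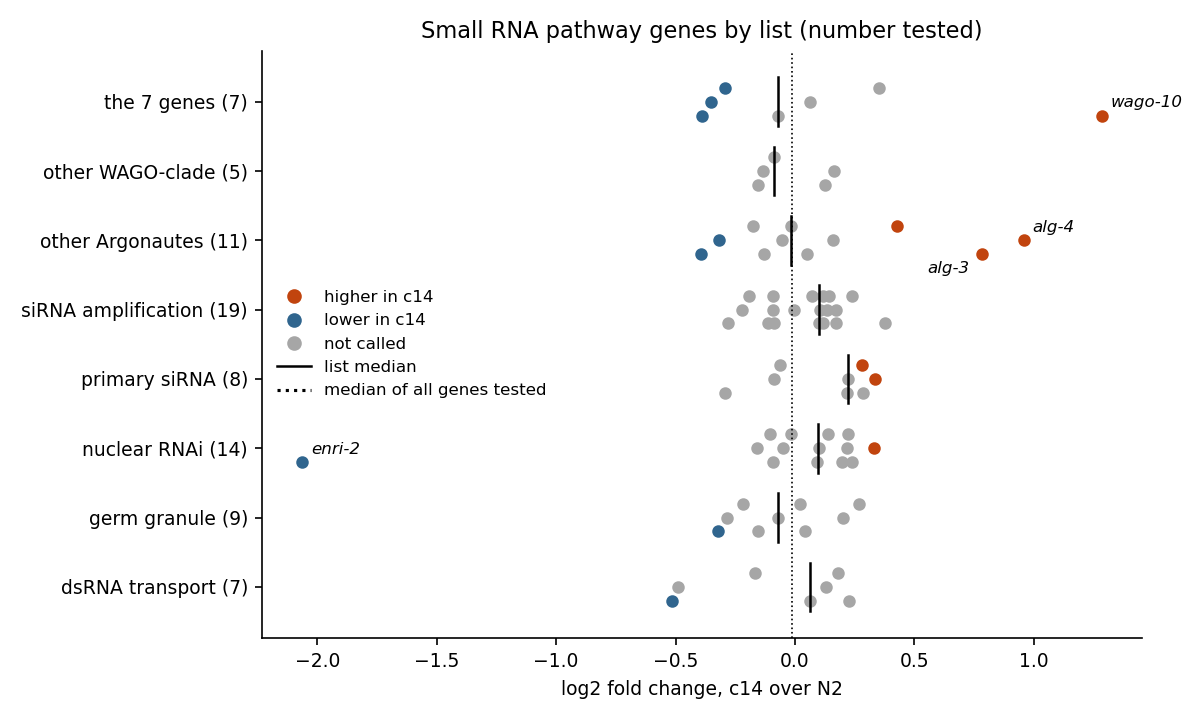
Log2 fold change (c14 over N2) of every tested gene in 8 lists of small RNA pathway genes, 1 point per gene (red for higher, blue for lower, grey for not called), with a black bar at each list's median and a dotted line at the median of all genes tested. Most genes lie within 0.5 of 0, and wago-10, alg-4, alg-3 and enri-2 stand farther out.

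Genes whose pattern over the 4 libraries was most like that of each called member were found by the Euclidean distance of log2 CPM, each gene centred on its own mean, among 9117 other genes of at least 5 CPM. The distance rests on 4 libraries, 2 of each strain, so it is a description and carries no test. The nearest to wago-10 were Y66D12A.11, Y24D9B.1 and F13A7.1, at distances of 0.08, 0.09 and 0.12 and with log2 fold changes of 1.32, 1.31 and 1.24. For wago-1 they were pcp-3, slc-25A10 and rack-1, all at distances of 0.01 to 0.02.

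The nearest to wago-4 were sqv-4, act-2 and eif-3.K, at distances of 0.02 to 0.03, and the nearest to nrde-3 were the oocyte gene egg-1 and the genes mmaa-1 and cpg-8, at 0.03 to 0.05. The egg-1 level was 377 and 402 CPM in c14 against 515 and 470 CPM in N2, with the same order of libraries as nrde-3. The distances to wago-10 were thus larger than those to the other 3 called members.

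The nearest protein-coding neighbours of the 7 genes, 1 on each side, lay 113 to 9269 bases away, and 13 of these 14 were tested. Of them 2 were higher and 1 lower in c14, where 13.1% of all genes tested were higher and 13.3% lower. Both tested neighbours of wago-5, ZK1248.5 (0.36 ± 0.12) and ZK1248.20 (0.85 ± 0.23), were higher, and dhp-1, 200 bases from wago-1, was lower (-0.37 ± 0.10). The call of ZK1248.20 was lost without c14 replicate 1 (0.52). Those of ZK1248.5 and dhp-1 were lost without c14 replicate 1 (0.33 and -0.32), c14 replicate 2 (0.44 and -0.39) or N2 replicate 2 (0.33 and -0.30), and that of ZK1248.5 also with the DESeq2 test (0.38). The tested neighbours of wago-10, dmd-8 and atg-9, had log2 fold changes of 0.67 ± 0.37 and 0.08 ± 0.11 and were not called (edgeR adjusted p = 0.2117 and 0.6266).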

How the data were processed

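Whole young adult worms served as the source, Trizol as the extraction reagent and the ScriptSeq v2 kit for the libraries, per the labels' protocols. For each gene, a raw count in 4 libraries was deposited by the authors and, in a second table, a log2 value. Neither aligner, counter and genome build nor strand use are named (not given in the sources used here). Tested on the files, a deposited log2 value is that of the count after scaling to equal library totals and adding 8 (largest gap 0.000515). These served as an alternative.

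Of 20182 gene IDs 18778 had a symbol by ID, and wago-2 was matched through identical coordinates in the RefSeq and Ensembl annotations of WBcel235, the source of positions and lengths. Groups came from the titles. The test was the quasi-likelihood F test of edgeR 4.0.16 in R 4.3.3, with TMM scaling and the default filter, adjusted after Benjamini-Hochberg over 13944 genes at a threshold of 0.05. A standard error is the log2 fold change, without sign, over the root of its F statistic, and intervals use the matching t quantile. Alternatives were other scalings and filters, DESeq2 1.42.0, limma 3.58.1, each library left out, a replicate block, and correction for a lowess trend on exon length in each library. The code was tested on simulated counts.

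Members and lists were chosen with earlier results of these data known. The rule for named genes took the 7 members, the mutated genes, up to 3 called genes of the largest change per pathway list (or its most abundant gene) and the 3 genes most alike each called member. With 2 libraries a strain, precision is set by their number more than by depth, except for weakly counted genes.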

Additional observations from a re-analysis of the deposited data

How the results depend on the processing

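The count of called genes was 3679, and 1485 to 4349 with a library left out, the lowest values being 1835 without c14 replicate 1 and 1485 without c14 replicate 2. Of the 7 members 4 were called, and 1 to 3 with a library left out (1 without either c14 library). Of 156 other listed genes 50 were called, and 24 to 60 with a library left out. These fits leave a lone library that is assumed to vary like the other group. The remaining alternatives kept each count within 1.5 times. Over all 12, wago-10 kept its call, while wago-1 lost it in 7, nrde-3 in 4 and wago-4 in 2. The values of 3 uncalled genes changed sign: wago-2 and ego-1 were -0.082 and -0.092 with the length trend removed, and hrde-1 was 0.016 without c14 replicate 1, within a range down to -0.121 over the libraries left out. The cause was not tested. The order of length-scaled levels was the same with the longest transcript or the coding length, which wago-2 lacks. Of 168 counts for single lists, 118 stayed within 1.5 times and 50 moved. Whether same-numbered libraries were prepared together is not stated. The correlation of their deviations was -0.04, which cannot settle it. The replicate block gave 3519 genes and 3 members, as wago-1 was not called (adjusted p = 0.09518). Of the other named genes it also ended the calls of csr-1, car-1, drh-1 and ZK1248.5 (adjusted p = 0.05665, 0.06081, 0.07764 and 0.0617).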
